A study of Canis lupus familiaris with 32 samples.

Results

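ENSCAFG00000000681 is 1 of 24580 genes listed for hip soft tissues of dogs, and it was followed through all 32 libraries by that identifier. It had been picked because it was higher in young than in control teres ligaments and higher in affected than in control joint capsules, so its levels in those groups are described here without a test. The files and reference table used here do not pair the identifier with a gene name, and no function is therefore given for it.

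The capsule is the fibrous sleeve around the hip joint, and the teres ligament ties the femoral head to the acetabulum inside it. In developmental dysplasia of the hip the joint is lax and the femoral head seats poorly in its socket, and dogs develop the condition naturally. Fibroblasts of such connective tissues lay down most of their collagen and elastic matrix during growth, and many matrix genes are turned down in the adult.

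Ribosomal RNA-depleted, strand-specific RNA libraries were sequenced from 25 dogs. The groups were embryonic hip (n = 3), capsule (n = 6) and teres ligament (n = 4) of young dogs under 1 month of age, capsule (n = 4) and ligament (n = 7) of dogs affected by hip dysplasia, and capsule (n = 5) and ligament (n = 3) of adult control dogs. Of the affected capsules, 3 came from dogs aged 4 months and 1 from an adult, and of the affected ligaments, 3 came from dogs aged 4 months and 4 from adults. No control was younger than adult, and the embryonic samples were whole hip. No genotype, breed or treatment is given in the labels, and by their identifiers no dog gave more than 1 library to a group. Tissue labels could not be checked against marker genes, because none of the identifiers could be paired with a symbol (0 matched).

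Library totals ran from 2857235 to 9895143 fragments, with a median of 4993068. The 10 most abundant genes held 12.0% to 12.8% of fragments in embryonic hip and 12.9% to 33.0% in the other groups. ENSCAFG00000000681 collected 115849 fragments over the 32 libraries, and every library held at least 1. The gene is long in the annotation used by the authors. Its number of scaled fragments per unit of FPKM, a measure of length, was 6.85 times that of the median gene and above that of 99.5% of genes. Fragments that the gene shares with a near-identical copy or an overlapping gene could not be recognised without a name or position. In these bulk samples, fewer cells that express the gene and less of its RNA per cell cannot be told apart.

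The gene was abundant before and shortly after birth and scarce in the adult (CPM, fragment counts relative to TMM-scaled library totals). The order of the group means was embryonic hip, young capsule, young ligament, affected capsule, affected ligament, control capsule and control ligament. From the highest to the lowest group, the means lay at 2537 ± 242 CPM (SD, n = 3), 1167 ± 503 CPM (n = 6), 1031 ± 261 CPM (n = 4), 29.8 ± 20.3 CPM (n = 4), 24.4 ± 25 CPM (n = 7), 2.61 ± 0.866 CPM (n = 5) and 1.6 ± 2.3 CPM (n = 3). The place of affected capsule above affected ligament depended on the ages pooled, 3 of 4 capsules but 3 of 7 ligaments being from dogs aged 4 months. At 4 months the capsule mean was the lower one, at 27.2 CPM against 49.4 CPM in ligament (n = 3 each), and in adults the single affected capsule had 37.6 CPM against a mean of 5.56 CPM in 4 ligaments. Of the 6 steps between neighbours in this order, 2 were free of overlap between libraries. These were embryonic hip over young capsule (as for 21.7% of 13585 genes) and young ligament over affected capsule. No share over all genes was computed for the latter step. Both of its groups had been high groups in the choice of the gene, and they differ together in tissue, age and disease. Young ligament over affected capsule was the widest step, at 34.6-fold between the means, while the neighbours young capsule and young ligament differed 1.13-fold and overlapped.

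**Figure D1:**
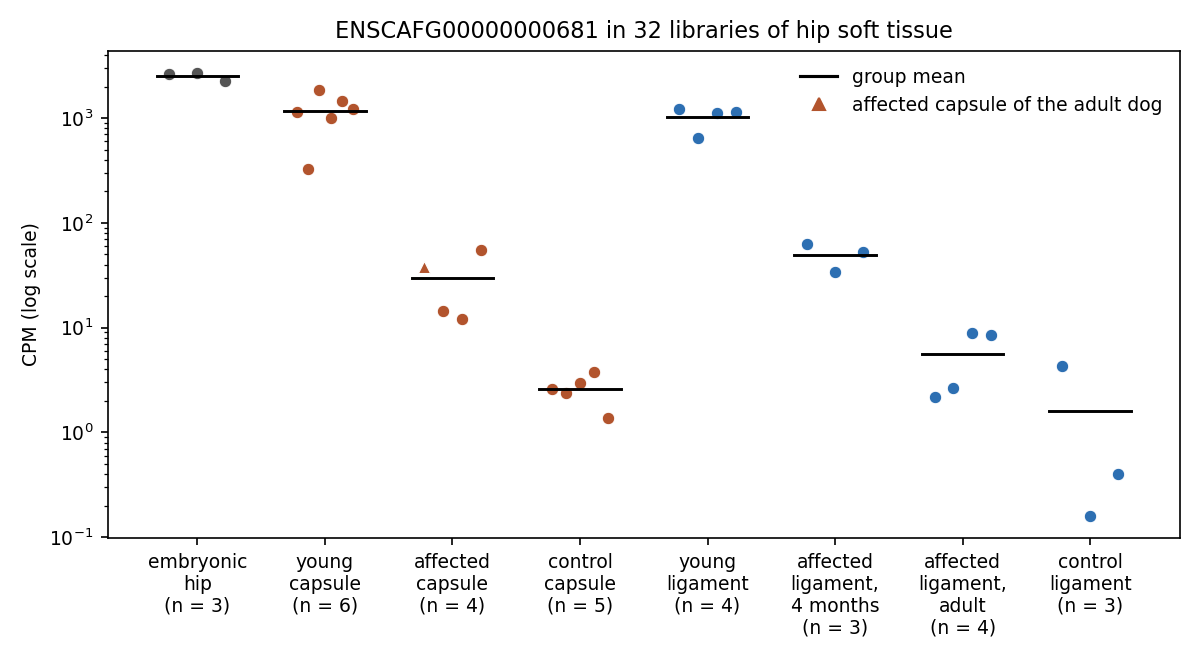
Each point is 1 library, with CPM of ENSCAFG00000000681 on a log axis, columns for the groups (affected ligament divided by age) and black bars at the group means. The embryonic and young libraries all lie at or above 329 CPM, every affected library lies at or below 62.4 CPM, and the adult controls lie at or below 4.26 CPM.

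Set against other genes by FPKM, which takes length into account, the gene moved over most of the range of expression. In embryonic hip it ranked 231st to 237th from the top in each library, at 206 to 241 FPKM. In young capsules its rank lay between 408 and 2596 and in young ligaments between 620 and 1155. Affected capsules placed it above 17.7% to 39.0% of the detected genes, and affected ligaments above 4.02% to 41.7%. In control capsules it stood above 2.95% to 7.09% of detected genes, at 0.126 to 0.346 FPKM, and in control ligaments above 0.0384% to 9.63%, at 0.0141 to 0.37 FPKM. Detection in adult control tissue rested on few fragments, 7 to 15 per library in capsule and 1, 2 and 21 in ligament.

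Young ligaments and control ligaments were one of the pairs on which the gene had been picked. Its CPM was 1223, 646, 1122 and 1132 in young ligaments, against 4.26, 0.159 and 0.4 in control ligaments. The groups did not overlap, which held in this direction for 12.8% of the 12701 genes tested, and young replicate 2 was the lowest of the young libraries. The log2 difference was 9.37 (SE 0.87), the highest of the genes fitted. Control replicate 1 held 21 of the 24 control fragments. Without it the remaining controls held 3 fragments, and the ratio of pooled fragments was 3715 (95% counting interval 1271 to 18017), with a log2 difference of 11.80 (SE 0.57). This smaller standard error derives from the F statistic and does not mean greater precision, since only 3 control fragments remained.

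In capsule the difference between young and adult control dogs was close in size to that in ligament when all control libraries were kept. It was smaller than the ligament log2 difference of 11.80 found without control ligament replicate 1. CPM in young capsules ranged from 329 to 1841 with a median of 1185, against 1.37 to 3.74 with a median of 2.61 in control capsules. Every young capsule stood above every control capsule, which was so for 10% of 12589 genes. The log2 difference was 8.79 (SE 0.49), the 4th highest among the genes fitted. The control capsules had helped to choose the gene as its low group, so this difference carries no test. Whether it differs from that in ligament was not tested for the same reason.

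Affected capsules lay between young and control capsules. The 4 affected capsules had 37.6, 14.6, 12.1 and 54.98 CPM, against 2.61, 2.36, 2.99, 3.74 and 1.37 CPM in control capsules. The lowest affected capsule was above the highest control, as for 1.18% of 12718 genes. The gene had been picked on this contrast, and its log2 difference of 3.52 (SE 0.47) is a description. The first of the affected values, 37.6 CPM from 145 fragments, belonged to the adult affected dog. It fell inside the 12.1 to 54.98 CPM of the dogs aged 4 months, and it is the single affected capsule that matches the controls in age class, with no replicate. Over the 3 capsules at 4 months alone, the log2 difference from controls was 3.38 (SE 0.50), and no control of that age was available, so disease and age cannot be told apart in them. The 10 most abundant genes held 24.7% to 30.4% of fragments in affected and 18.7% to 25.3% in control capsules, and the part of this shift in the gene's difference was not tested.

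Affected capsules stayed well below the level of young ones. Affected capsules averaged 2.55% of the mean of young capsules and 2.89% of the mean of young ligaments, while control capsules averaged 0.224% of the mean of young capsules. All affected capsules were below all young capsules, as were 6.85% of 12894 genes. The log2 difference was -5.24 (SE 0.60), again without a test because the affected capsules had entered the choice of the gene. Of 13966 genes with a mean of at least 1 CPM, 37 (0.265%) stood in the order young, affected and control capsule with no overlap at either step. When embryonic hip above young capsule was also asked for, 21 genes (0.15%) had the pattern, and ENSCAFG00000000681 was among them. Both patterns include affected above control capsule, the contrast on which the gene had been picked. Its place among these genes is therefore no separate evidence.

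**Figure D2:**
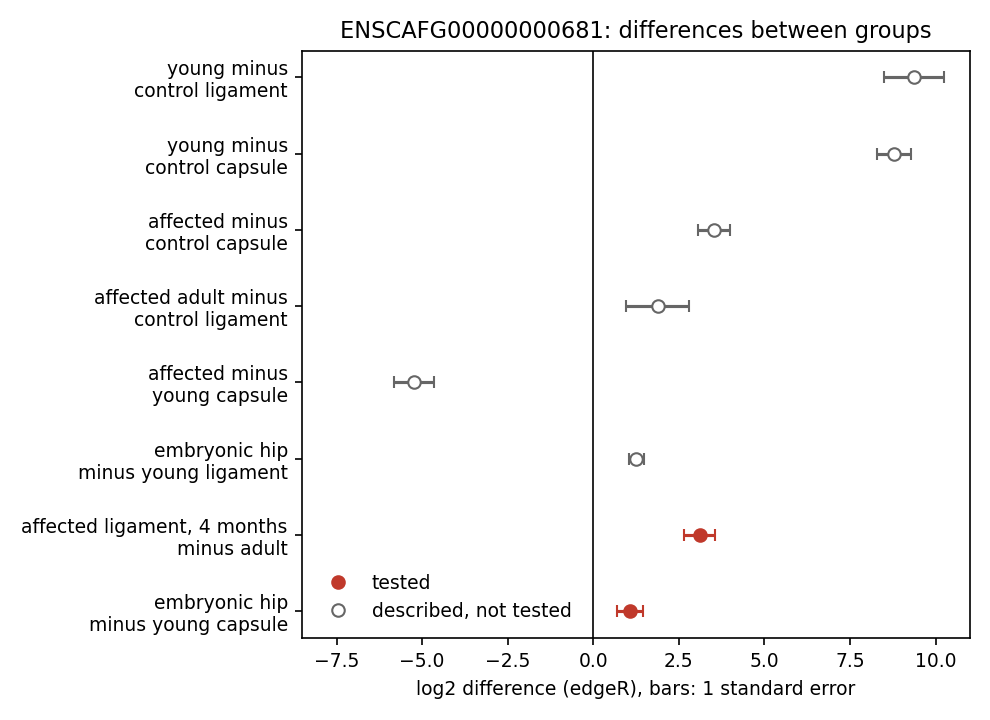
The horizontal axis gives the edgeR log2 difference of ENSCAFG00000000681 for 8 pairs of groups, with bars of 1 standard error; filled red points were tested and open points are descriptions. Young minus control differences lie at 9.37 in ligament and 8.79 in capsule, and the tested differences at 3.11 and 1.08.

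The libraries of affected ligament had played no part in the choice of the gene, and a test between ages was made within them. It is not fully independent of that choice, because the dogs aged 4 months also gave affected capsules that entered it. Affected ligaments of dogs aged 4 months held more of the transcript than those of affected adults. CPM was 62.4, 33.7 and 52.2 at 4 months, against 2.19, 2.68, 8.87 and 8.51 in adults. All 3 ligaments at 4 months were above all 4 of adults, as were 15.6% of 12619 genes. The mean was 49.4 ± 14.6 CPM over the ligaments at 4 months (SD, n = 3) and 5.56 ± 3.62 CPM over the adult ones (n = 4), an 8.89-fold ratio. In edgeR's quasi-likelihood test the log2 difference was 3.11 (SE 0.46, Benjamini-Hochberg adjusted p = 0.00793), where 6.24% of genes were called higher at 4 months. It ranked 5th among the positive differences, and the median over all genes tested was 0.03. The two-sided exact permutation test on log2 CPM gave p = 0.0286, the smallest that 35 splits allow (adjusted over 2 tests, 0.0357).

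With any 1 of the 7 affected ligaments left out, the difference remained called, at log2 2.82 to 3.41 (edgeR adjusted p = 0.00553 to 0.0312). The 3 dogs aged 4 months had also given affected capsules, which did enter the choice of the gene, so the dogs are not independent of it. In the labels these dogs also carry identifiers with a common start, of unstated meaning and absent from the affected adults, and this cannot be told apart from age. Among the affected adults, replicates 1 and 2 (2.19 and 2.68 CPM) share another start. Replicates 3 and 4 (8.87 and 8.51 CPM) lack it, and this split was not tested. Library totals were 3337144 to 4677891 fragments at 4 months and 3440440 to 6234628 in adults, and the 10 most abundant genes held 14.2% to 20.03% and 18.7% to 29.1% of them. Their part in the difference was not tested.

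At matched age class, adult affected ligaments overlapped with control ligaments. The 4 affected adults spanned 2.19 to 8.87 CPM and the 3 controls 0.159 to 4.26 CPM. Of the affected adults, 2 lay above every control, and control replicate 1 lay above the other 2 affected adults. The log2 difference was 1.88 (SE 0.92), and it was 4.29 (SE 0.96) without control replicate 1. The remaining controls then held 3 fragments against 106 in affected adults, a ratio of 22.1 (95% counting interval 7.35 to 109). No test is given, since the control ligaments had served as a low group in the choice of the gene. Affected ligaments at 4 months averaged 4.8% of the young ligament mean and those of affected adults 0.54%.

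Embryonic hip held the highest level in the series. Its 3 libraries had 2656, 2696 and 2258 CPM, against 1148, 329, 1841, 1009, 1454 and 1222 CPM in the 6 young capsules. There was no overlap, as for 21.7% of 13585 genes, and the ratio of means was 2.17. The size of the gap depended on the scaling. On plain library totals it was wider, at 3379, 3437 and 3039 CPM in embryonic hip against 274 to 1554 CPM in young capsules. Among young capsules, replicate 2 stood lowest at 329 CPM and the other 5 lay at 1009 CPM or more. In edgeR's quasi-likelihood test the log2 difference was 1.08 (SE 0.38, adjusted p = 0.0445), where 20.3% of genes were called higher in embryos. The exact permutation test on log2 CPM gave p = 0.0357 (two-sided, 84 splits, adjusted over 2 tests 0.0357).

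This call lay close to the threshold. It was lost without embryonic replicates 1, 2 or 3 (edgeR adjusted p = 0.113, 0.113 and 0.0846) and without young capsule replicates 1, 4 or 6 (0.0745, 0.0792 and 0.066). Without young capsule replicate 2, the difference was smaller and its error narrower (log2 0.89, SE 0.18, adjusted p = 0.00176). Of the young capsules, 3 came from dogs whose ligaments had entered the choice of the gene. The test is therefore not fully independent of that choice. Against the 3 young capsules of dogs that gave no ligament library, the log2 difference was 0.77 (SE 0.23, edgeR adjusted p = 0.0238). Those dogs had no part in the choice of the gene. Age and tissue differ together in this comparison and cannot be told apart. The 10 most abundant genes held 12.0% to 12.8% of fragments in embryonic hip and 21.5% to 32.2% in young capsules, and their part in the difference was not tested. Embryonic hip was above young ligament too, without overlap, as for 28.2% of 13462 genes, with a log2 difference of 1.26 (SE 0.21) that carries no test because the young ligaments had chosen the gene.

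Both tissues were available from 7 dogs, which let capsule and ligament be set side by side within a dog. In the 3 young dogs the capsule over ligament ratio was 0.939, 0.51 and 1.08. In the 3 affected dogs aged 4 months it was 0.233, 0.359 and 1.05, and in the adult control dog 0.702, on 15 capsule and 21 ligament fragments. The capsule was lower in 5 of the 7 dogs, with a mean log2 ratio of -0.71 ± 0.85 (SD, n = 7), a mean smaller than the spread between dogs. The gap was widest in the affected dog with 14.6 CPM in capsule and 62.4 CPM in ligament. The third affected dog was nearly level, at 54.98 CPM in capsule and 52.2 CPM in ligament. These are descriptions, since libraries of these dogs had entered the choice of the gene.

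**Figure D3:**
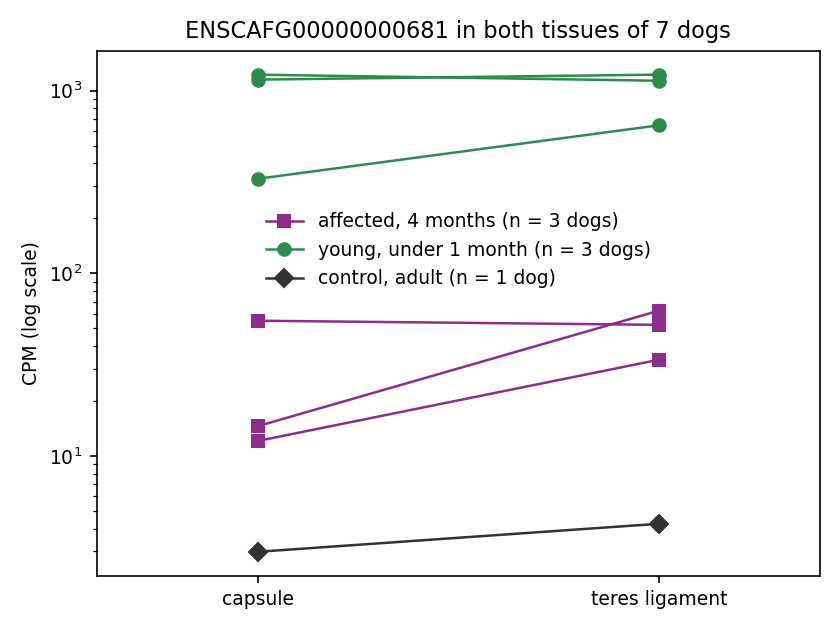
CPM of ENSCAFG00000000681 on a log axis in capsule (left) and teres ligament (right), with a line joining the libraries of 1 dog. The 3 young dogs lie at 329 CPM or more in both tissues, the 3 affected dogs aged 4 months between 12.1 and 62.4 CPM, and the adult control dog at 2.99 CPM in capsule and 4.26 CPM in ligament.

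One young dog was low in both tissues. Its libraries, replicate 2 of each young group, had 329 CPM in capsule and 646 CPM in ligament, the lowest of 6 and of 4. The other 2 young dogs with both tissues had 1148 and 1222 CPM in capsule and 1223 and 1132 CPM in ligament. The 10 most abundant genes held 32.2% of fragments in that dog's capsule library and 33.0% in its ligament library, the highest share in each group. The labels give every young dog only as under 1 month of age, so differences in age within the group were not tested. Among the young dogs it alone has the identifier start shared by the affected dogs aged 4 months, whose meaning is not stated.

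Other genes followed a similar course over the 32 libraries. By Pearson r of log2 CPM with ENSCAFG00000000681, 122 of 13965 genes with a mean of at least 1 CPM reached 0.9 or more, and the median over these genes was 0.02. The points share libraries, scaling and the 7 groups, so r is a description of likeness. The most similar gene was ENSCAFG00000001450, with r = 0.968 over 32 libraries and 0.988 over the 7 group means. ENSCAFG00000016090 came second, with r = 0.967 over libraries and 0.988 over group means. Neither identifier could be paired with a name. The choice of these 2 genes depended on the measure. By Spearman rho, both gave way to other genes (their own rho was 0.924 and 0.966), and with a prior count of 0.5 the second did.

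ENSCAFG00000001450 differed in its level and in how far it fell. Per length it averaged 696 ± 95.2 FPKM (SD, n = 3) in embryonic hip, 611 ± 250 FPKM (n = 6) in young capsules, 28.5 ± 20.3 FPKM (n = 4) in affected capsules and 6.38 ± 2.11 FPKM (n = 5) in control capsules. ENSCAFG00000000681 averaged 228 ± 19.7, 105 ± 45.8, 2.74 ± 1.85 and 0.239 ± 0.0806 FPKM in the same groups. The similar gene was thus higher per length in each of these groups, by a ratio that was smallest in the embryo. ENSCAFG00000016090 averaged 83.7 ± 3.05, 36.4 ± 13.9, 7.03 ± 3.23 and 1.74 ± 0.758 FPKM in them, below ENSCAFG00000000681 in the embryo and the young and above it in affected and control capsules.

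The most opposite course was that of ENSCAFG00000019134, with r = -0.955 over libraries. It averaged 5.43 ± 0.914 FPKM (SD, n = 3) in embryonic hip, 11.6 ± 6.21 FPKM (n = 6) in young capsules, 62.4 ± 24.7 FPKM (n = 4) in affected capsules and 104 ± 42.3 FPKM (n = 5) in control capsules. ENSCAFG00000008354 came next with r = -0.935, at 15 ± 2.96, 24.7 ± 10.1, 76.5 ± 38.9 and 176 ± 29.4 FPKM in those groups. For both opposite genes, as for both similar ones, the mean of the affected capsules lay between the young and the control mean. All were chosen by r over these same libraries, which made this shared position likely, so it is no separate evidence.

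**Figure D4:**
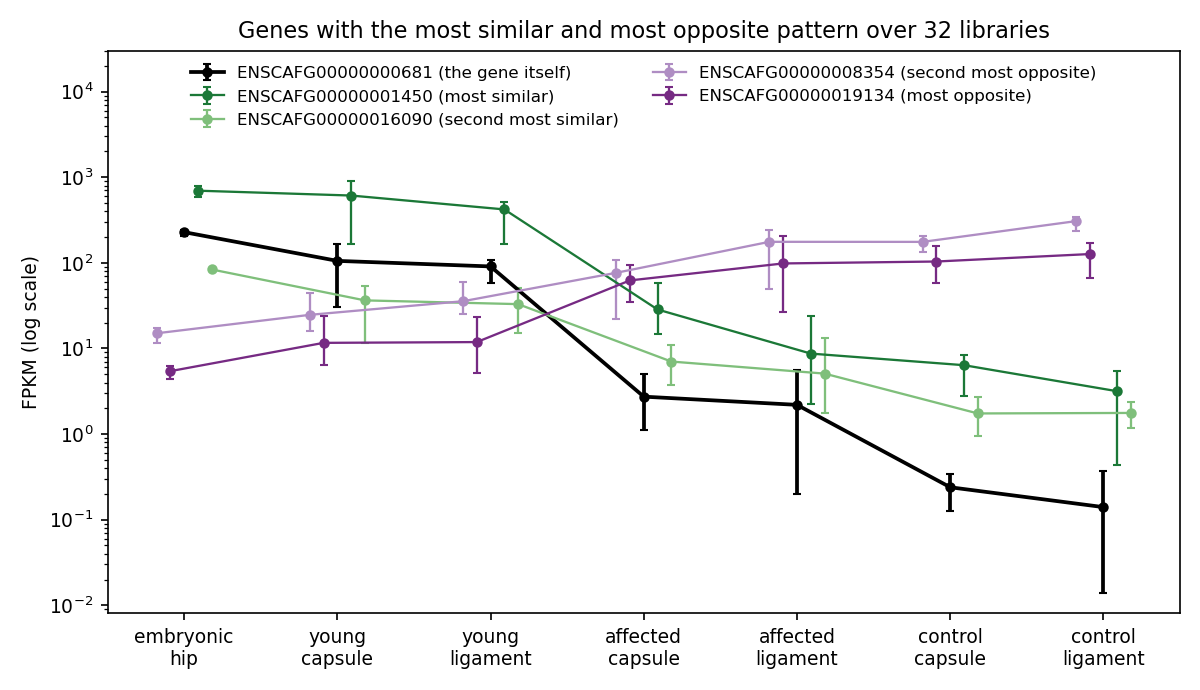
Mean FPKM on a log axis over the 7 groups for ENSCAFG00000000681 (black), the 2 most similar genes (green) and the 2 most opposite genes (purple); bars run from the lowest to the highest library of a group, and points are set slightly apart for legibility. ENSCAFG00000000681 covers the widest span of the 5 genes, from 228 FPKM in embryonic hip to 0.14 FPKM in control ligament.

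Part of the likeness lay between dogs of the same group. With the group means taken out (affected ligament divided by age), r with ENSCAFG00000000681 was 0.66 for ENSCAFG00000001450 and 0.629 for ENSCAFG00000016090. Its median was 0.644 over the 20 most similar genes and 0.002 over all genes compared. For the opposite genes ENSCAFG00000019134 and ENSCAFG00000008354, also chosen on these libraries, r was -0.616 and -0.566. The dog with low values in both young tissues was part of this pattern. Of the 20 most similar genes, 19 were also lowest in its capsule among the 6 young capsules (22.0% of all genes compared) and 20 were lowest in its ligament among the 4 young ligaments (29.4% of all genes). Without its 2 libraries the median over the 20 genes was 0.53, and r of the 2 opposite genes was -0.512 and -0.463. Among affected capsules, 15 of the 20 were highest in replicate 4, as was ENSCAFG00000000681, against 26.2% of all genes, and 14 were lowest in replicate 3, as it was, against 27.0%. Among control ligaments, 16 were highest in replicate 1 with it, against 33.4%. At other extremes the likeness was not seen. Young capsule replicate 3, where ENSCAFG00000000681 was highest, was highest for 1 of the 20 genes (16.2% of all genes), and affected ligament replicate 5, again its highest, for 2 of the 20 (15.1%). The 20 genes had been chosen on these same libraries, so these shares describe them and carry no test. Their median length, by scaled fragments per unit of FPKM relative to the median gene, was 1.93 against 1.31 over all genes compared. The 2 most similar genes lay at 0.663 and 3.31, and the 2 most opposite at 3.4 and 2.49. The part of length in these shares was not tested.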

How the data were processed

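The submitters' processing notes name the canFam3 build and, with no roles, Cuffdiff 2.2.1, TopHat2 2.0.13, Bowtie2 2.2 and cutadapt 1.8. The sources used here give neither the annotation release nor the strand used in counting. The deposited table holds, per the file headers, an estimated count of fragments per gene and library, a scaled fragment signal made by the authors, and FPKM values of the authors on that scale. Estimated counts (0.332% of values off a whole number by more than 1e-06) were rounded. All 32 values of the gene carried the status OK.

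CPM used TMM factors over all libraries. Pairs of groups were fitted over all genes kept by filterByExpr with edgeR 4.0.16 (robust quasi-likelihood F test, R 4.3.3), with Benjamini-Hochberg adjustment and calls at an adjusted p under 0.05. Standard errors derive from the F statistic. The 2 comparisons free of libraries that chose the gene were tested, and the others are given as differences with standard errors. In both tested comparisons, some dogs had also given libraries that did enter the choice. Single values used exact permutation tests over all splits. Alternatives used DESeq2 1.42.0, limma 3.58.1, other scaling, no filter, and libraries left out. Likeness is Pearson r of log2 CPM (prior count 2) among genes with a mean of at least 1 CPM; the 2 highest and 2 lowest are named. Counting intervals (exact binomial, 0.95) cover counting error only. The gene, lists and tests were chosen with earlier results of these data known. The edgeR test was tried on simulated counts in which every gene had the same spread between libraries. That setting does not show how the test behaves for this gene. The separate capsule and ligament tables were not used.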

Additional observations from a re-analysis of the deposited data

How the results depend on the processing

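The difference between affected ligaments at 4 months and of adults kept its direction and its call under all 13 alternatives, at log2 1.84 (limma on log2(FPKM + 1), adjusted p = 0.0109) to 3.41, and DESeq2 gave an adjusted p of 8.9e-09. The excess of embryonic hip over young capsule kept its direction under all 17 alternatives and its call under 8. It was not called with no filter on low counts (log2 1.08, adjusted p = 0.0674), with 1 model over all 32 libraries (1.12, 0.0743) or with the replicate number as a block over replicates 1 to 3 (1.47, 0.0709), and leaving out 1 library gave log2 0.89 to 1.25 (adjusted p = 0.00176 to 0.113). DESeq2 called it (adjusted p = 0.0107). The cause was not tested. Same-numbered embryonic and young libraries shared only a number, their deviations correlating at 0.01, -0.12 and 0.08. In the ligament comparison of ages no number is shared. Of the differences that were only described, those against control ligament moved by more than the spread between replicates without control replicate 1. With 1 library left out they ran from 8.78 to 11.80 for young and from 1.30 to 4.29 for adult affected ligaments. The order of the groups was the same with plain library totals and with FPKM, but these keep the ages pooled, and at 4 months affected capsule lay below affected ligament (27.2 against 49.4 CPM). By Spearman rho, 8 of the 20 most similar genes were kept, against 17 with a prior count of 0.5; the first replaced both named similar genes at the top and the second replaced 1. Depth limits the adult control values, which rest on 57 fragments in capsule and 24 in ligament.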
